A study of Mus musculus with 12 samples.

Results

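Of 48443 ATAC-seq peaks in mouse CD4+ T cells, 927 (1.91%) were far more open in induced regulatory T cells (iTreg) than in non-pathogenic Th17 cells (Th17n). They were selected on measured levels: a mean over the 6 iTreg libraries of at least 5 CPM (a peak's count divided by its library's total count, times 1000000) that was also at least 3 times the mean over the 6 Th17n libraries. The mirror rule, with the lineages exchanged, held for 6341 peaks (13.1%). ATAC-seq inserts adapters into accessible DNA with a transposase, so a peak's count measures how open that region is.

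All cells were sorted naive CD4+CD44-CD62L+CD25- T cells from spleens of wild-type C57BL/6 mice of unstated age, activated on plates coated with antibodies to CD3 and CD28 at 1 µg/ml each. Th17n cultures received 25 ng/ml IL-6 with 2 ng/ml TGF-beta1, and iTreg cultures 2 ng/ml TGF-beta1 alone. Each lineage was grown with vehicle or with 100 µM DFMO and harvested at 68 hours. The 4 groups hold 3 libraries each, and the labels give the same animals 1 to 3 in every group. Live cells were sorted and frozen before tagmentation. The cells are polarised in culture, so they are a model of the lineages and not cells taken as Th17 or regulatory cells from tissue. A culture is a bulk sample, in which a region open in fewer cells and a region less open in each cell cannot be told apart.

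Regulatory T cells restrain immune responses, and TGF-beta signalling can turn activated naive T cells into them by inducing the transcription factor Foxp3. Adding IL-6 diverts the same cells to the Th17 fate, driven by STAT3 and marked by the cytokine IL-17. DFMO (difluoromethylornithine) irreversibly inhibits ornithine decarboxylase, encoded by Odc1, the enzyme that opens polyamine synthesis. Most DNA regions whose openness differs between related cell types are distal elements such as enhancers, while promoters tend to be open in both.

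Few of these regions reached a promoter, here a RefSeq window of 250 bases before to 50 after a gene's start. The windows shown are those of protein-coding genes of which the selected peak covered more than 200 bases (of 2 nearly identical Gask1a windows the one with the longer overlap). They were chosen because they are the promoter sequence that lay under these peaks. Sequences are from RefSeq, build GRCm38.p6, written 5′ to 3′ on the gene's strand, and capitals mark a match to one of 12 transcription factor motifs searched on both strands.
Fermt1 (chr2:132945987-132946286, minus strand, 272 of 300 bases under the peak): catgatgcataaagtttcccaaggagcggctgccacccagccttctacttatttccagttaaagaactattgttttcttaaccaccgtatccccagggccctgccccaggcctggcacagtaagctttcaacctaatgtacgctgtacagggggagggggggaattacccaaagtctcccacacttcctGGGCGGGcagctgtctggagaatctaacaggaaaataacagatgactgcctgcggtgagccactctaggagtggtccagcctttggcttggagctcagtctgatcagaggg
Gask1a (chr9:121950770-121951069, plus strand, 269 of 300 bases under the peak): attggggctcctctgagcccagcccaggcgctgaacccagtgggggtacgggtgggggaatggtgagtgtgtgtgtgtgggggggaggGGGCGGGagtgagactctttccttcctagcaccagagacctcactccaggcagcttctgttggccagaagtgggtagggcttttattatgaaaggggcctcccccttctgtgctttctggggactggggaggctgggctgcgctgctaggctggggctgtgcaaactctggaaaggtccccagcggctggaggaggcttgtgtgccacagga
6330409D20Rik (chr2:32740967-32741266, minus strand, 262 of 300 bases under the peak): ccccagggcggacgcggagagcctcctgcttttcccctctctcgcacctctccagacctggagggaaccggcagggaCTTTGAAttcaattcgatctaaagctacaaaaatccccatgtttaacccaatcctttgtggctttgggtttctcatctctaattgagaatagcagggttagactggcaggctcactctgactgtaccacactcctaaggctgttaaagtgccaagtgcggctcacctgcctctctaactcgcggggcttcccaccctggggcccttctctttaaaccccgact

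The capitals in the Fermt1 and Gask1a windows are the GC box bound by KLF and SP factors (GGGCGGG), and those in the 6330409D20Rik window the TCF/LEF motif CTTTGAA. The GC box lay in 5 of the 12 windows that a selected peak touched, which come from 11 genes. Those 5 include the same site in both Gask1a windows. In the Il4i1 and Scin windows the peak covered only 2 and 58 bases, and the boxes lay outside it. Over all 32851 windows 25.6% held the GC box, and 49.6% of those under any peak did, wherever the peak lay in the window. TCF/LEF, RUNX (TGTGGTT), RORE (AGGTCA) and a SMAD palindrome (GTCTAGAC) each matched 1 of the 12, against 5.14%, 5.27%, 16.3% and 0.213% of all windows. The RUNX match, in the LOC105247329 window, also lay outside its peak. AP-1 (TGANTCA), forkhead (TGTTTAC), the GATA family (AGATAA), ETS (CCGGAAG), STAT (TTCCNGGAA), CRE (TGACGTCA) and NFAT (TTTTCCA) matched none. The median GC content of the 12 windows was 53.5%, near the 52.7% of all windows and below the 62.3% of windows under any peak.

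One selected peak covered nearly all of a microRNA hairpin, Mir6998, inside Fubp3 (chr2:31612422-31613440). Its 2 mature strands (chr2:31612426-31612447 and chr2:31612462-31612483, plus strand) are shown with the seed, bases 2 to 8, in capitals, and they share no seed with each other.
mmu-miR-6998-5p: cUGGGCAGagggcaaagugacu
mmu-miR-6998-3p: aGAGCUGCucugugcccacaca
This region was at 37.8, 57.6 and 53.8 CPM in the vehicle iTreg libraries of animals 1, 2 and 3, and at 39.9, 62.2 and 31.4 with DFMO. The Th17n libraries stood at 2.94, 5.85 and 4.4 with vehicle and at 2.92, 7.79 and 10.4 with DFMO. Whether the microRNA is made in these cells was not measured.

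Library totals ran from 1020937 to 6496550 counts. The shallowest was the Th17n vehicle library of animal 1, where 288 of the 927 peaks had no count and 3 counts equal 2.94 CPM. In the other Th17n libraries 22 to 80 of the peaks had no count, and in the iTreg libraries 0 to 4. The selected peaks drew 1.19 to 1.48% of all counts in iTreg libraries, 0.234 to 0.268% in Th17n vehicle libraries and 0.341 to 0.365% in Th17n DFMO libraries. Of the label markers, Il17a and Il17f had 6 peaks each, summing to 151 and 137 CPM in Th17n vehicle against 45.0 and 25.4 CPM in iTreg vehicle. The single Foxp3 peak went against the label: 16.1 ± 4.77 CPM (SD, n = 3) in Th17n vehicle against 4.27 ± 2.21 in iTreg vehicle. The 16 Ctla4 peaks also summed higher in Th17n vehicle, at 424 CPM against 322 in iTreg vehicle. The 15 Il2ra peaks summed to 512 and 516 CPM. No selected peak was assigned to Foxp3, Il2ra, Ctla4, Il17a, Il17f, Il23r or Odc1, so iTreg here stands for the culture condition.

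Most of the 927 regions were modest peaks in iTreg cells. Their iTreg mean ranged from 5.02 to 92.6 CPM, with a median of 10.6, and 494 reached 10 CPM, 166 reached 20 and 17 reached 50. The Th17n mean had a median of 2.42 CPM. The median ratio was 4.06, with 482 regions at 4 times or more, 297 at 5 and 62 at 10. In 598 regions all 6 iTreg libraries lay above all 6 Th17n libraries. These values chose the regions and carry no test. At the edge of the ratio rule, a peak near Dapp1 (14.3 against 4.75 CPM) was just inside and one near Jade2 (13.3 against 4.43) just outside. At the edge of the level rule, a peak near Lrig1 (5.02 CPM) was inside and one in Mbd5 (4.99) outside.

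**Figure D1:**
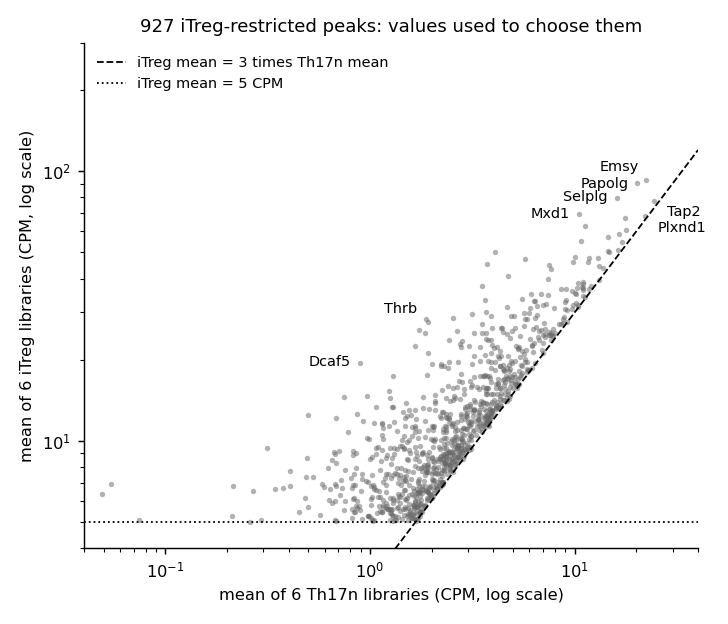
Mean CPM of the 6 iTreg libraries (vertical, log scale) against that of the 6 Th17n libraries (horizontal, log scale) for the 927 selected peaks; each point is a peak and the lines are the bounds of the rule. Most points crowd near the lines, with a median ratio of 4.06, and a few labelled peaks stand far from them, such as the one in Dcaf5 (19.5 against 0.895 CPM).

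Choosing on 2 animals and reading the remaining animal gave a value that the choice did not use. Peaks chosen without animal 1, 2 or 3 numbered 966, 964 and 1008. In the animal left out, iTreg exceeded Th17n in 97.7%, 97.7% and 99.1% of them, and by at least 3 times in 61.9%, 62.4% and 61.3%. The median log2 ratio there was 1.68, 1.71 and 1.65, against 1.83 over all libraries, with 0.5 CPM added to each mean.

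The selected regions avoided promoters and gene ends. Off chromosome 18, 10 of 902 (1.11%) overlapped a promoter window, against 9782 of 47021 peaks (20.8%). Only 34 (3.67%) lay within 1 kb of either end of a protein-coding gene, against 25.2% of all peaks and 35.2% of peaks at 5 CPM or more in iTreg. Inside genes lay 452 (48.8%), outside but within 100 kb 356 (38.4%), and 85 (9.17%) had no gene within 100 kb, where all peaks gave 42.7%, 27.3% and 4.85%. The Th17n-restricted peaks were as sparse at gene ends, at 3.09%, so this place is shared by both lineages' restricted peaks. They were also narrow, with a median width of 414 bp against 480 bp. A region is called here by its nearest gene, which does not show which gene it controls.

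**Figure D2:**
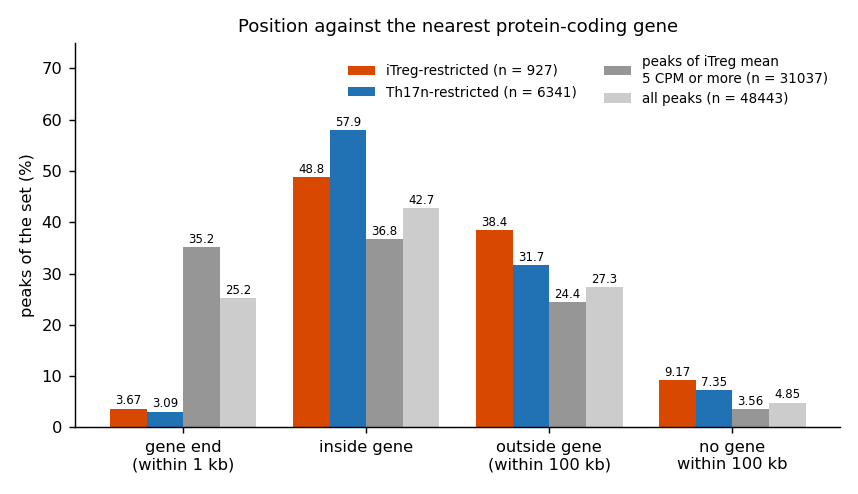
Share of peaks (%, vertical) in each position relative to the nearest protein-coding gene (horizontal) for the 927 iTreg-restricted peaks, the 6341 Th17n-restricted peaks, the peaks of at least 5 CPM in iTreg and all peaks; bars are counts with no replicate error. At gene ends the restricted sets reach 3.67% and 3.09%, while all peaks reach 25.2%.

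The regions were scattered over 749 genes. Of these, 669 had 1 region, 67 had 2 and 13 had 3. The 13 included Tgfbr2, the signalling receptor for TGF-beta, Nrp1 (neuropilin-1, a co-receptor found on regulatory T cells), Ldlrad4, a membrane protein that restrains SMAD signalling, and Emsy. Within 50 kb of another selected region lay 175, in 82 groups of 2 or more.

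The highest iTreg level belonged to a region between Lrrc32 and Emsy (chr7:98562815-98563395), 23735 bp from Emsy and 60984 bp from Lrrc32. Lrrc32 encodes GARP, which holds latent TGF-beta on the surface of activated regulatory T cells, and Emsy encodes a transcriptional repressor that binds BRCA2. This region was at 92.6, 77.8 and 74.0 CPM in the vehicle iTreg libraries and at 106, 106 and 99.1 with DFMO. In Th17n it was at 6.86, 17.1 and 18.8 with vehicle and at 38.7, 24.7 and 28.0 with DFMO. The Th17n DFMO libraries all lay above the Th17n vehicle libraries and below every iTreg library. The Th17n rise was 0.96 ± 0.21 (log2, SE; edgeR adjusted p = 0.0020), and without the DFMO library of animal 1 its adjusted p was 0.116.

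A second region of this interval on the Lrrc32 side (chr7:98531693-98531925, 29862 bp from that gene), moved the other way. Its vehicle iTreg libraries were at 23.0, 12.5 and 20.0 CPM and its DFMO iTreg libraries at 4.11, 5.22 and 3.52. The groups did not overlap, and the fall was -2.08 ± 0.40 (log2, SE; edgeR adjusted p = 0.00057). With DFMO it stood at the Th17n level, 3.08 to 5.88 CPM with vehicle and 1.95 to 5.19 with DFMO. Its DFMO iTreg mean, 4.28 CPM, was under the bound of 5 CPM, so its place in the set came from the vehicle libraries. How far the choice adds to this fall was not tested. The remaining selected peaks here, next to Emsy, averaged 16.6 and 9.62 CPM in vehicle iTreg and 8.62 and 3.93 with DFMO (adjusted p = 0.11 and 0.12). Peaks at the start of Lrrc32 differed little by lineage, with an iTreg to Th17n ratio of 0.998 for the taller of them.

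**Figure D3:**
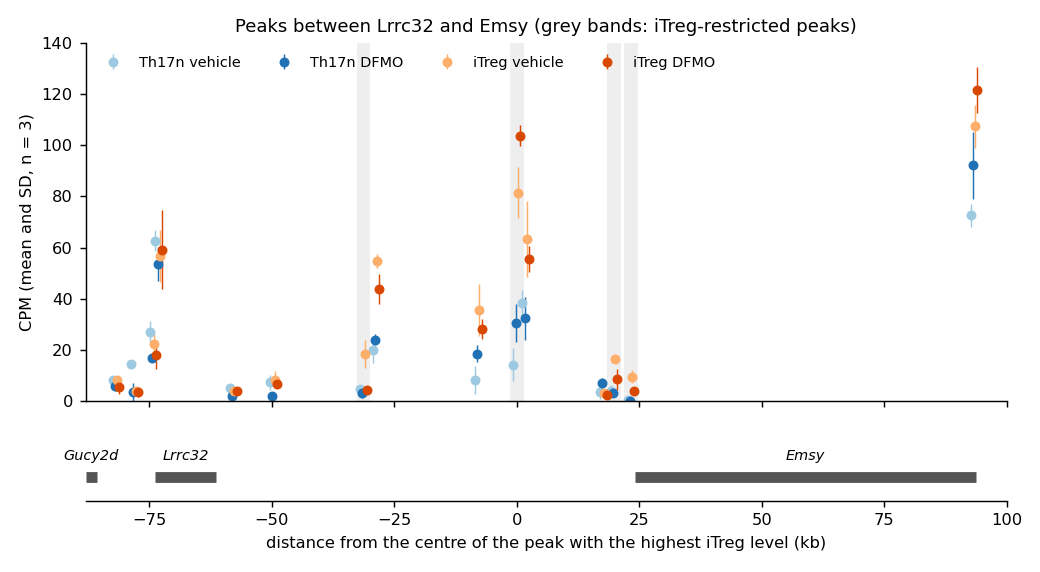
Peak levels (CPM, mean and SD of 3 libraries, vertical) against distance from the centre of the peak with the highest iTreg level (kb, horizontal) in the 4 groups, with the points of a peak set slightly apart for legibility; grey bands mark the 4 iTreg-restricted peaks and bars beneath mark gene bodies. The peak at distance 0 is high in both iTreg groups, and the nearest grey band to its left is high in iTreg vehicle only, at 18.5 CPM against 4.28 with DFMO.

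The next highest region lay 3411 bp from Papolg, which encodes a poly(A) polymerase, and 84411 bp from Rel (chr11:23855380-23856734). Rel encodes c-Rel, an NF-kappaB subunit that regulatory T cells need. It was at 99.7, 93.5 and 101 CPM in vehicle iTreg and at 11.8, 20.6 and 12.3 in vehicle Th17n. A companion between it and Rel (chr11:23823186-23823783) was at 25.7 CPM over iTreg and 1.74 over Th17n. Neither passed the DFMO test in iTreg. The first rose in Th17n, to 28.9, 28.1 and 19.5 CPM (log2 0.70 ± 0.21, edgeR adjusted p = 0.030). That call was lost under DESeq2 (adjusted p = 0.0522) and without 5 of the libraries in turn, with an adjusted p up to 0.283 without the Th17n vehicle library of animal 3.

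A region at an end of Selplg (chr5:113832411-113833024) came next. Selplg encodes PSGL-1, the selectin ligand that lets T cells roll on vessels. Its iTreg libraries were at 68.5, 62.6 and 57.0 CPM with vehicle and at 91.6, 95.4 and 104 with DFMO, and its Th17n libraries ran from 12.3 to 20.8. The iTreg groups did not overlap (log2 0.67 ± 0.15, edgeR adjusted p = 0.0040), but 2 of the libraries ended the call when left out, with an adjusted p up to 0.0583 without the DFMO library of animal 3.

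Other high regions lay near Tap2, a subunit of the transporter that loads peptides on MHC class I (77.3 CPM over iTreg), Mxd1, a MYC antagonist (69.5), Plxnd1, a semaphorin receptor (68.2), and Icos. The Icos region (chr1:60940902-60941921) lay 18852 bp from Icos, a costimulatory receptor, and 25070 bp from Ctla4, the inhibitory receptor of regulatory T cells. It was at 62.4, 59.8 and 64.7 CPM in vehicle iTreg, 63.4, 77.8 and 73.0 with DFMO, and 12.9 to 21.1 in Th17n. Every iTreg library exceeded every Th17n library, and DFMO made no difference that passed the test in either lineage (adjusted p = 0.47 and 0.74). Among the steepest ratios at a solid level were regions inside Dcaf5 (19.5 against 0.895 CPM) and Hbs1l (50.1 against 4.08).

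Genes of the regulatory T cell programme held 11 of the selected regions among their 188 peaks (5.85%, against 1.91% of all peaks). They belonged to Nrp1 (3), Ikzf2 (2), Tigit (2), Prdm1, Lag3, Lrrc32 and Swap70. Ikzf2 encodes Helios, Prdm1 encodes Blimp-1, and Tigit and Lag3 are inhibitory receptors. Summed over all 188 peaks, the programme's genes were at 3572 CPM in iTreg and 3525 in Th17n. In iTreg, where 3.84% of all tested peaks rose and 4.72% fell with DFMO, 0 of the 11 rose and 2 fell: the Lrrc32 region and one 36836 bp from Tigit (chr16:43701961-43702354), named after its values were seen. The Tigit region was at 30.7, 13.5 and 12.9 CPM with vehicle and at 2.35, 1.90 and 8.50 with DFMO (log2 -1.91 ± 0.44, edgeR adjusted p = 0.0036). The vehicle and DFMO libraries did not overlap. The median DFMO change of the 11 was -0.11 (log2) in iTreg and 0.12 in Th17n.

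TGF-beta pathway genes held 7 of 203 peaks (3.45%): 3 at Tgfbr2 and 1 each at Smad3, Runx1, Runx3 and Itgb8, a subunit of an integrin that frees active TGF-beta. In iTreg 2 of the 7 rose and 0 fell, both at Tgfbr2, where 13.7% of all selected regions and 3.84% of all tested peaks rose. The one inside the gene (chr9:116123105-116123456) went from 9.21, 7.95 and 5.26 CPM to 24.1, 12.3 and 18.2 (log2 1.33 ± 0.36, adjusted p = 0.014), and the one 55111 bp away (chr9:116230474-116230958) from 17.9, 9.24 and 18 to 32.9, 18.5 and 37.2 (1.03 ± 0.32, adjusted p = 0.035). Both pairs of groups did not overlap. Each lost the call without certain single libraries, with an adjusted p up to 0.119 without the vehicle library of animal 3 for the first and up to 0.262 without the DFMO library of animal 3 for the second. The second also lost it under DESeq2 (adjusted p = 0.0580). The last Tgfbr2 region, at 13.2 CPM with vehicle and 10.1 with DFMO, did not pass.

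Genes of other helper programmes also held iTreg-restricted regions. Th1 and cytotoxic genes held 11 of 121 (9.09%), at Il18r1, Ifng, Eomes, Hopx, Stat4, Il12rb2, Ccl3, Fasl and Runx3. With DFMO in iTreg, 1 rose, inside Il12rb2 (a chain of the IL-12 receptor, 7.53 to 17.2 CPM, adjusted p = 0.021), and 1 fell, inside Stat4, the factor that receptor activates (17.6 to 7.58 CPM, adjusted p = 0.046). Th17 genes held 6 of 160 (3.75%), at Rora, Csf2, Stat3 and Batf. Of these 3 fell with DFMO in iTreg, where 4.72% of all tested peaks fell. Another, in Rora, rose in Th17n (5.36 to 12.9 CPM, adjusted p = 0.017), where 4.5% of all tested peaks rose. The falling ones lay near Batf, a factor needed for Th17 cells (23.0 to 9.04 CPM, adjusted p = 0.0080), near Csf2, which encodes GM-CSF (15.6 to 6.07, adjusted p = 0.044), and inside Rora, a nuclear receptor of the Th17 fate (18.2 to 5.77, adjusted p = 0.0028). All 6 of these Th1 and Th17 gene calls were lost without at least 1 library. The Rora fall was lost without the iTreg DFMO library of animal 3 (adjusted p = 0.0652), and Batf without 2 libraries, with an adjusted p up to 0.161 without the iTreg vehicle library of animal 3. The Rora rise, Il12rb2, Stat4 and Csf2 were lost without 5, 4, 9 and 6 of the libraries in turn, with an adjusted p up to 0.0959 without the Th17n vehicle library of animal 2, 0.124 without the iTreg vehicle library of animal 2, 0.186 without the iTreg DFMO library of animal 1 and 0.334 without that of animal 3. Under DESeq2 Csf2 and Stat4 had an adjusted p of 0.409 and 0.0731, and with animals as blocks Stat4 had 0.0522. Il12rb2, Stat4 and Csf2 were named after their values were seen.

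Naive and memory T cell genes held 6 of 389 (1.54%), led by Lef1 (41.9 CPM in vehicle iTreg against 9.95 in vehicle Th17n), and none passed with DFMO. Homing genes held 4 of 177 (2.26%), Tfh genes 2 of 102 (1.96%) and Th2 genes 1 of 56 (1.79%, Ccr8). IL-2 and STAT5 genes held 1 of 128 (0.781%, Bcl2), and polyamine genes 1 of 81 (1.23%). The polyamine region lay inside Slc7a1, a carrier of arginine and ornithine, and averaged 14.0 CPM in vehicle iTreg and 6.22 with DFMO (adjusted p = 0.059).

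Marker genes of other cell types also held selected regions in these cultures of sorted CD4+ cells. Of all peaks 1.91% were selected, and of those of regulatory T cell programme genes 5.85%. B cell genes held 2 of 30 peaks (6.67%, Ebf1 and Cd22) and myeloid genes 3 of 56 (5.36%, Irf8 with 2 and Spi1). NK and innate genes held 2 of 34 (5.88%, Klrb1c and Zbtb16), so shares near that of the regulatory T cell programme also occurred in these lists. Peaks were assigned to 7 of 13, 14 of 16 and 8 of 11 of these genes, with none at Cd79a, Cd79b, Ms4a1, Fcer2a, Btk, Mpo, Elane, Ncr1, Klra1 or Fcer1g. Summed over all their peaks, B cell genes were at 178 to 234 CPM in iTreg libraries and 270 to 306 in Th17n, myeloid genes at 744 to 989 and 768 to 950, and NK genes at 617 to 703 and 645 to 796. Those sums were no higher in iTreg for B cell genes and overlapped for the others. Such sums do not show which cells the counts came from. With DFMO, Ebf1 fell in iTreg, from 8.28 to 2.55 CPM (adjusted p = 0.038), while Spi1 (0.508 to 4.19, adjusted p = 0.018) and Zbtb16 (1.07 to 3.79, adjusted p = 0.038) rose in Th17n. All 3 calls were lost without some single libraries, 5, 3 and 6 in turn, with an adjusted p up to 0.126 without the iTreg vehicle library of animal 3, 0.122 without the Th17n vehicle library of animal 3 and 0.245 without that of animal 2. Zbtb16 also had an adjusted p of 0.0505 with animals as blocks. The part of other cells in these changes was not tested.

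The rule did not compare DFMO with vehicle and weighed both equally, but its means hold the libraries that the DFMO contrasts compare. A region can therefore enter through a single treatment: 259 passed the rule in the vehicle libraries only and 213 in the DFMO libraries only. How far this adds to the DFMO calls in either direction was not tested. Of the 927 regions 923 passed the filter on low counts, and the 4 others had iTreg means of 5.16 to 5.52 CPM. They passed through their iTreg counts, and 43726 peaks were tested in all.

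DFMO raised more of these regions than it lowered in iTreg cells. By edgeR's quasi-likelihood test with Benjamini-Hochberg adjustment over all tested peaks, 126 of 923 (13.7%) rose and 32 (3.47%) fell, where 3.84% of all tested peaks rose and 4.72% fell. At least 2-fold were 116 of the 126 and 31 of the 32. The median change of the 923 was 0.16 (log2; middle 50% from -0.35 to 0.74) against -0.0093 for all tested peaks. The Th17n-restricted peaks, with 1.99% higher and 4.53% lower, leaned the other way. Away from gene ends, 13.6% of the selected regions rose where 3.89% of such peaks did. The rise rested on few libraries: 59 rose without the DFMO library of animal 3, and 62 and 48 without the vehicle libraries of animals 2 and 3. The falls numbered 20 and 10 without the DFMO libraries of animals 1 and 3, 53 without that of animal 2, and 20 and 12 without the vehicle libraries of animals 2 and 3.

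Peaks chosen on 2 animals and read in the remaining one did not all lean up in iTreg. Their median log2 change with DFMO was -0.10, 0.26 and 0.098 in animals 1, 2 and 3, where all tested peaks gave 0.0054, -0.025 and -0.084. So the iTreg tilt was absent in animal 1 when that animal did not help to choose the regions. Each iTreg DFMO library was shallower than the vehicle library of the same animal, and the part of depth in the choice was not tested.

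In Th17n cells these regions were chosen to be low, which leaves little room to call a fall. All tested peaks carry no such bound, so their shares are not like for like. In Th17n 106 of 923 (11.5%) rose and 9 (0.975%) fell, against 4.5% and 4.28% of all tested peaks. Of the 923, 655 had a positive change. The median was 0.54 (log2; middle 50% from -0.12 to 1.2) against 0.011 for all tested peaks. Read in the animal not used for the choice, the median was 0.52, 0.41 and 0.47, where all tested peaks gave -0.0070, -0.0011 and -0.037. The tilt held in all 3 animals. Of the Th17n-restricted peaks 11.3% fell and 2.30% rose in the same contrast. The 106 went from a median of 1.25 to 6.14 CPM, while their vehicle iTreg median was 13.2, and in 65 of them every Th17n DFMO library still lay below every vehicle iTreg library. The count was 56 without the DFMO library of animal 1, and 52 and 55 without the vehicle libraries of animals 2 and 3. The 9 that fell became 5 and 3 without the DFMO library of animal 1 and the vehicle library of animal 2.

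The median lineage gap of these regions was narrower with DFMO, a difference that carries no test. The median levels were 9.71 CPM in iTreg and 1.93 in Th17n with vehicle, and 10.9 and 2.85 with DFMO. The median log2 ratio was 2.07 with vehicle and 1.78 with DFMO. All 3 iTreg libraries lay above all 3 Th17n libraries in 860 regions with vehicle and in 799 with DFMO. These counts come from the libraries that the rule used, and no share over all peaks is given beside them. The Th17n vehicle library of animal 1 had no count at 288 of the regions, and the part of depth in the counts was not tested. The rule held in the vehicle libraries alone for 704, in the DFMO libraries alone for 658 and in both for 445. Among the 445, 43 rose and 8 fell in iTreg and 40 rose and 2 fell in Th17n. Over all tested peaks 3.84% rose and 4.72% fell in iTreg, and 4.5% and 4.28% in Th17n. The 445 had to hold the rule in the same libraries that these contrasts compare, so their counts do not show what the choice adds.

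Some regions moved in both lineages, whose libraries are separate. Higher in both were 30, which is 23.8% of those that rose in iTreg and 28.3% of those that rose in Th17n. Over all tested peaks 348 were higher in both, which is 20.8% and 17.7% of the risers. Lower in both was 1, in Runx2, and 2 fell in iTreg and rose in Th17n. Of the 126 that rose in iTreg 111 (88.1%) had a positive change in Th17n, and of the 106 that rose in Th17n 84 (79.2%) had one in iTreg, where all tested peaks gave 82.1% and 76.4%. Over the 923 regions the 2 changes had a Pearson r of 0.32 and a Spearman correlation of 0.33, near the 0.29 and 0.29 of all tested peaks, given as a description since regions of the same libraries are not independent.

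**Figure D4:**
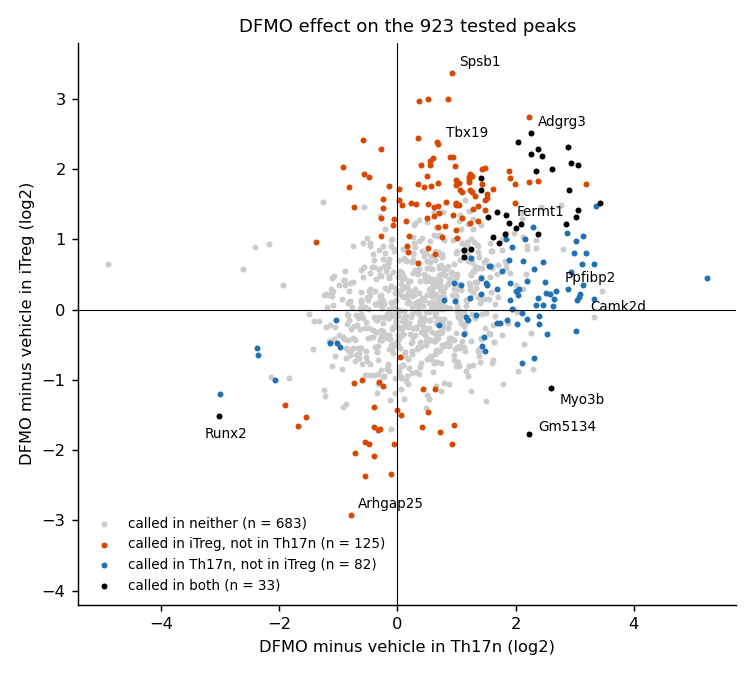
DFMO effect in iTreg (log2, vertical) against that in Th17n (log2, horizontal) for the 923 tested regions; each point is a region, coloured by which edgeR test it passed at an adjusted p of 0.05. The cloud is shifted to the right of 0, with a Th17n median of 0.54, and the 33 black points passed in both lineages, 30 of them in the upper right.

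The interaction test asked directly whether the DFMO effect differed between lineages. It found 1 region (0.108%) with a higher effect in iTreg and 19 (2.06%) with a lower one, against 0.478% and 0.835% of all tested peaks. Of the 19, 18 had also risen in Th17n. The 19 became 8 and 9 without the Th17n DFMO libraries of animals 1 and 3, and 12 and 5 without the Th17n vehicle libraries of animals 1 and 3. They became 11, 41 and 10 without the iTreg DFMO libraries of animals 1, 2 and 3, and 11 without the iTreg vehicle library of animal 3. The 1 became 0 to 4 when single libraries were left out.

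The iTreg rise with the smallest adjusted p lay inside Spsb1 (chr4:149901469-149901823), a SOCS-box protein that marks targets for degradation. It was at 3.58, 1.72 and 1.21 CPM with vehicle and at 22.9, 16.6 and 19.9 with DFMO, and in Th17n at 3.92, 1.69 and 2.06 with vehicle and at 2.92, 3.89 and 5.86 with DFMO. With vehicle it was thus no higher in iTreg than in Th17n, and its place in the set came from the DFMO libraries. The change was 3.37 ± 0.44 (log2, SE; edgeR adjusted p = 2.0e-06) and the interaction had an adjusted p of 0.064.

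The region near Tbx19 (chr1:165110705-165111133), a T-box factor best known from the pituitary, rose from 14.3, 3.87 and 7.08 CPM to 44.6, 25.6 and 45.4 in iTreg (log2 2.36 ± 0.33, adjusted p = 5.7e-06). In Th17n it was at 1.96, 1.69 and 2.94 CPM with vehicle and at 3.57, 3.46 and 3.26 with DFMO. Those groups did not overlap, but the change did not pass (0.69 ± 0.53, edgeR adjusted p = 0.46). The interaction did not pass either (1.66 ± 0.64, adjusted p = 0.19). One inside Cdh1 (chr8:106643035-106643446), which encodes E-cadherin, went from 11.8, 5.8 and 10.1 to 42.8, 19.5 and 34 (1.86 ± 0.33, adjusted p = 0.00019). One inside Sardh, sarcosine dehydrogenase, went from 8.69, 3.01 and 3.03 to 24.7, 10.4 and 34 (2.45 ± 0.40, adjusted p = 5.8e-05). In all of them the DFMO libraries lay above the vehicle libraries, and none lost the call with any library left out. With vehicle the Sardh region averaged 4.91 CPM in iTreg and 3.58 in Th17n, so its place in the set also came from the DFMO libraries.

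Regions that rose in both lineages included one inside Adgrg3 (chr8:95037160-95037597), an adhesion receptor. It went from 3.58, 6.02 and 3.03 CPM to 27.0, 22.8 and 23.7 in iTreg (log2 2.51 ± 0.38, adjusted p = 2.0e-05) and from 0, 0.770 and 3.23 to 6.82, 7.36 and 7.81 in Th17n (2.25 ± 0.51, adjusted p = 0.0031). The DFMO libraries of each lineage lay above its vehicle libraries, though the Th17n call was lost without the vehicle library of animal 2 (adjusted p = 0.0946). The vehicle iTreg mean of this region, 4.21 CPM, was under the bound of 5 CPM, so it entered the set through the DFMO libraries. A region inside Mnat1 (chr12:73201676-73202093), which encodes an assembly factor of the CDK-activating kinase, rose from 32.2, 17.4 and 15.6 to 54.0, 43.7 and 61.5 CPM in iTreg and from 3.92, 5.54 and 7.05 to 18.5, 20.3 and 16.9 in Th17n (log2 1.39 ± 0.24 and 1.69 ± 0.31, adjusted p = 0.00013 and 0.00026). Neither Mnat1 call was lost with any library left out.

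Of the 3 promoters shown, those of Fermt1 and 6330409D20Rik opened with DFMO in both lineages. Fermt1 encodes kindlin-1, which helps activate integrins. Its peak (chr2:132945478-132946258), which also covers the start of the lncRNA gene Gm14102, was at 22, 15.7 and 14.8 CPM in vehicle iTreg and 42.8, 33.7 and 41.6 with DFMO (log2 1.23 ± 0.26, edgeR adjusted p = 0.0013). In Th17n it was at 3.92, 2.77 and 4.70 with vehicle and 11.4, 12.5 and 16.9 with DFMO (1.90 ± 0.35, adjusted p = 0.00031). The groups did not overlap in either lineage, and no left-out library ended either call. The 6330409D20Rik peak also lies inside another gene, Sh2d3c. It went from 4.60, 3.65 and 2.83 to 14.7, 20.9 and 13.8 CPM in iTreg (2.21 ± 0.44, adjusted p = 0.00081) and from 2.94, 1.23 and 0 to 6.17, 4.33 and 3.91 in Th17n (2.25 ± 0.61, adjusted p = 0.013, and 0.136 without the vehicle library of animal 3). All its vehicle iTreg libraries were under the bound of 5 CPM, so it entered the set through the DFMO libraries. The Gask1a peak, at 12.5 CPM in vehicle iTreg and 12 with DFMO, did not pass in either lineage.

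Other iTreg rises with groups that did not overlap included regions inside Wdr46 (log2 1.87 ± 0.31, adjusted p = 8.4e-05) and Ldlrad4, the brake on SMAD signalling. The Ldlrad4 region (chr18:68157309-68157980) went from 24.0, 16.3 and 18.2 CPM to 71.6, 34.2 and 53.9 (1.49 ± 0.27, adjusted p = 0.00021). Its vehicle means were 19.5 CPM in iTreg and 7.33 in Th17n, a ratio under the bound of 3. A second Ldlrad4 region rose as well, from a mean of 5.00 to 13.8 CPM (adjusted p = 0.015, and up to 0.0836 without the vehicle library of animal 3), and the remaining one did not pass, at 4.84 and 5.31 CPM.

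Falls in iTreg were led by a region 4830 bp from B3gnt2 (chr11:22865166-22866040), whose enzyme builds the sugar chains of polylactosamine. It was at 44.0, 31.6 and 30.7 CPM with vehicle and at 4.11, 16.1 and 9.96 with DFMO, against 2.35 to 6.51 in Th17n (log2 -1.74 ± 0.32, adjusted p = 0.00028). All DFMO libraries lay below all vehicle libraries. With DFMO its means were 10.1 CPM in iTreg and 5.02 in Th17n, a ratio under the bound of 3. Of the 19 regions with a lower effect in iTreg it was the one that did not pass in Th17n (interaction -2.46 ± 0.57, adjusted p = 0.017, and up to 0.0782 without the Th17n vehicle library of animal 3).

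A tall region inside Vav2 (chr2:27404630-27405785), an exchange factor that activates small GTPases, fell from 57.8, 76.1 and 88.3 to 25.8, 51.7 and 27.5 CPM (log2 -1.09 ± 0.20, adjusted p = 0.00043). One inside Arhgap25 (chr6:87530392-87530676), a protein that switches small GTPases off, fell from 5.11, 11.6 and 14.2 to 0.587, 1.42 and 1.76 (-2.92 ± 0.56, adjusted p = 0.00049). In both, the groups did not overlap and no left-out library ended the call. With DFMO the Arhgap25 region overlapped the Th17n libraries, which ran from 0.650 to 2.15 CPM. Its DFMO iTreg libraries were all under 5 CPM, so its place in the set came from the vehicle libraries. The Vav2 region averaged 35.0 CPM in iTreg and 15.3 in Th17n with DFMO, a ratio under the bound of 3. Further falls lay near B4galt5 (-2.37 ± 0.54) and Idi2 (-2.04 ± 0.45) and inside Chst11 (-1.89 ± 0.42), genes of glycolipid, isoprenoid and chondroitin sulfate synthesis, with adjusted p from 0.0026 to 0.0032. Idi2 and Chst11 lost the call without the DFMO library of animal 3 (adjusted p = 0.0672) and the vehicle library of animal 3 (0.0553).

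**Figure D5:**
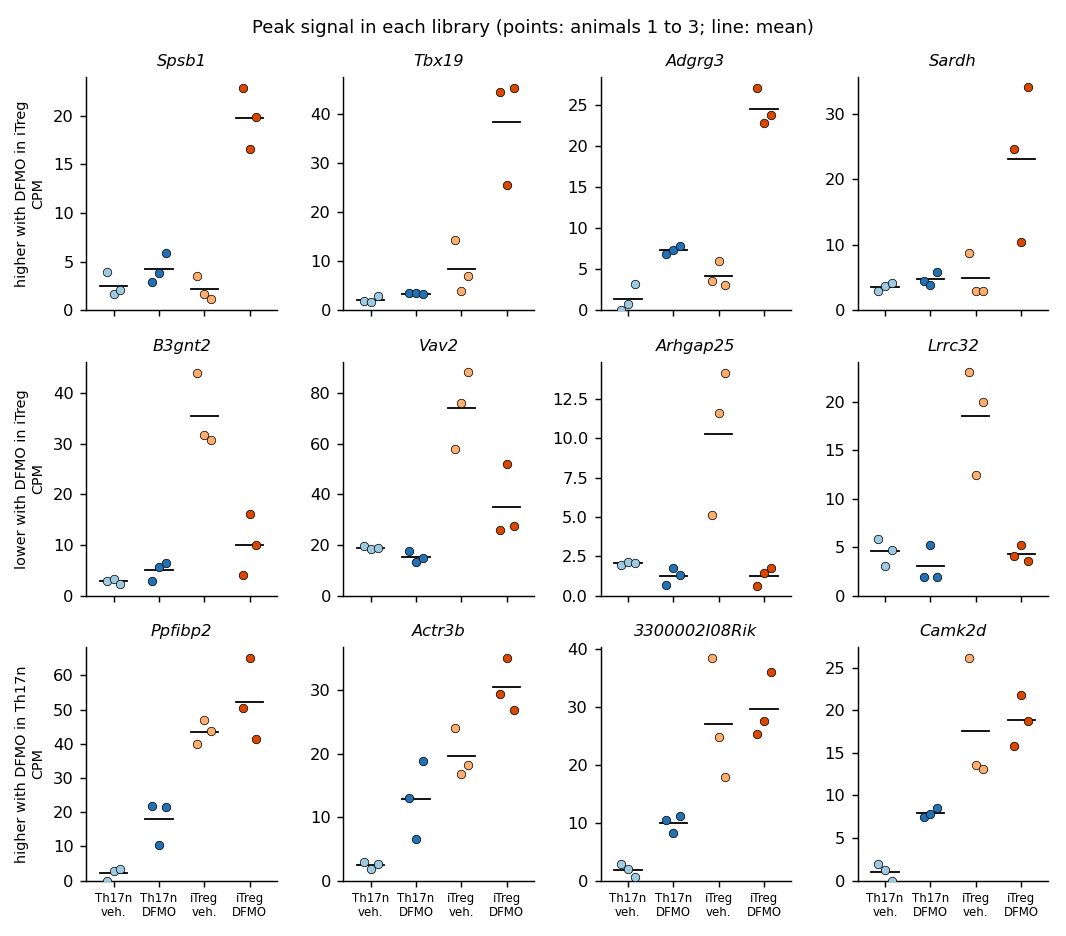
CPM in each of the 12 libraries (vertical, linear from 0) by group (horizontal) for the regions with the smallest adjusted p whose groups did not overlap, 4 per row: higher with DFMO in iTreg, lower in iTreg, higher in Th17n; points are animals and lines are means of 3. The Spsb1 region is low in every group but iTreg DFMO (16.6 to 22.9 CPM), and the Lrrc32 region is high in iTreg vehicle alone.

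The Th17n rise with the smallest adjusted p lay inside Ppfibp2 (chr7:107648262-107649234), which encodes the scaffold protein liprin-beta-2. It was at 0, 2.92 and 3.52 CPM with vehicle and at 21.8, 10.4 and 21.5 with DFMO, and in iTreg at 39.9, 47.1 and 43.7 with vehicle and 50.5, 65.0 and 41.3 with DFMO. The Th17n groups did not overlap (log2 2.68 ± 0.35, edgeR adjusted p = 1.3e-06), while the iTreg groups did (0.26 ± 0.22, adjusted p = 0.53). The difference between the effects was -2.41 ± 0.42 (adjusted p = 0.0011), and no left-out library ended it. With DFMO the Th17n libraries thus lay between Th17n vehicle and iTreg.

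Regions in Camk2d and Nectin3 showed the same order of groups. The region inside Camk2d (chr3:126824845-126825312), a calcium-dependent kinase, went from 1.96, 1.23 and 0 to 7.47, 7.79 and 8.46 CPM (log2 3.08 ± 0.54, adjusted p = 0.00013). The one near Nectin3 (chr16:46345101-46345949), a cell adhesion molecule, went from 0, 1.23 and 0.587 to 8.45, 6.92 and 3.91 (2.88 ± 0.51, adjusted p = 0.00016). In both, Th17n DFMO lay above Th17n vehicle and below every iTreg library, and the iTreg change did not pass the test (adjusted p = 0.79 and 0.58). Other Th17n rises had other patterns in iTreg or are given by their means. A region at an end of 3300002I08Rik went from 1.84 to 9.90 CPM in Th17n (2.58 ± 0.44, adjusted p = 0.00012) and one near Actr3b, a paralog of an Arp2/3 subunit, from 2.48 to 12.8 (2.46 ± 0.41, adjusted p = 5.7e-05). The Actr3b iTreg groups did not overlap either, at a mean of 19.7 and 30.5 CPM (adjusted p = 0.12), and its interaction did not pass (adjusted p = 0.051). The region inside Elfn2 rose in Th17n (3.03 ± 0.53, adjusted p = 0.00013) and in iTreg (1.32 ± 0.33, adjusted p = 0.0069, and up to 0.0664 without the DFMO library of animal 3).

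The 2 regions that fell in iTreg and rose in Th17n moved in opposite directions. One inside Myo3b (chr2:70105650-70106154), an actin motor, went from 0.979, 0.770 and 0.881 to 6.5, 6.06 and 1.95 CPM in Th17n (log2 2.59 ± 0.56, adjusted p = 0.0020) and from 14.3, 13.8 and 17.8 to 6.46, 8.07 and 6.45 in iTreg (-1.12 ± 0.37, adjusted p = 0.047). The DFMO levels of the lineages overlapped, where the vehicle levels were far apart. The iTreg fall had an adjusted p of 0.056 with animals as blocks and 0.0776 under DESeq2, and was lost without 8 of the libraries in turn (up to 0.222 without the iTreg vehicle library of animal 3), while the difference between the effects (-3.71 ± 0.67, adjusted p = 0.0017) kept its call with each library left out. The other lay near Gm5134 (chr10:76016869-76017267), at 24.5, 21.1 and 20.6 CPM in vehicle iTreg and 0, 12.3 and 5.86 with DFMO (-1.77 ± 0.43, adjusted p = 0.0064) and at 0, 1.23 and 0.294 in vehicle Th17n and 5.52, 2.16 and 3.26 with DFMO (2.23 ± 0.71, adjusted p = 0.037). The difference between the effects was -4.01 ± 0.83 (adjusted p = 0.0062). Under DESeq2 these adjusted p were 0.255, 0.198 and 0.140, and each call was lost without the DFMO library of animal 3 in iTreg (0.0514) or of animal 1 in Th17n (0.320 and 0.110), and the Th17n rise also without 3 others in turn.

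Falls in Th17n were few, and these regions start low there. The clearest was inside Runx2 (chr17:44536608-44537188), a runt factor, from 3.92, 9.08 and 10.9 to 0.650, 0.865 and 1.95 CPM (log2 -3.03 ± 0.54, edgeR adjusted p = 0.00021). In iTreg it fell from 21.0, 20.9 and 26.7 to 8.80, 11.9 and 4.10 (-1.52 ± 0.35, adjusted p = 0.0036, and 0.0838 without the DFMO library of animal 3). The groups did not overlap in either lineage. Regions inside Map3k20, a stress-activated kinase (6.58 to 1.34 CPM, -2.36 ± 0.52, adjusted p = 0.0024), near Lcn5, a lipocalin (5.08 to 0.650, -3.0 ± 0.67, adjusted p = 0.0029), and inside Slco3a1, an organic anion transporter (8.51 to 1.34, -2.38 ± 0.58, adjusted p = 0.0059), also fell. The Lcn5 and Slco3a1 calls were lost without the DFMO library of animal 1 (adjusted p = 0.0508) and the vehicle library of animal 2 (0.0602).

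The single region with a higher effect in iTreg lay 39406 bp from Mdfic (chr6:15841575-15842070), whose protein inhibits myogenic factors. It rose from 10.7, 10.5 and 12.7 to 19.4, 29.4 and 17.6 CPM in iTreg (log2 0.96 ± 0.32, adjusted p = 0.048) and went from 1.96, 5.23 and 4.11 to 0.975, 2.16 and 1.95 in Th17n (-1.39 ± 0.52, adjusted p = 0.085). The iTreg groups did not overlap and the Th17n groups did. The difference was 2.35 ± 0.61 (adjusted p = 0.035), and 7 of the 12 libraries ended the call when left out, with an adjusted p up to 0.168 without the Th17n vehicle library of animal 2. The iTreg rise had an adjusted p of 0.0562 with animals as blocks, and was lost without 8 of the libraries in turn, with an adjusted p up to 0.227 without the iTreg DFMO library of animal 2.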

How the data were processed

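ATAC-seq was done on 12 libraries, 3 per group. The deposited file is a table of raw counts per peak; per the labels libraries were paired-end, and per the submitters' processing notes Trimmomatic, FastQC, Bowtie2, MACS2 and build mm10 were used, with versions and peak merging not given in the sources used here. Of its count columns 0 were unused. Whether peak starts count from 0 or 1 is not stated, and coordinates are as in the file.

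CPM used column totals of the deposited counts. edgeR 4.0.16 (R 4.3.3; filterByExpr by group, TMM, one fit over all groups, quasi-likelihood test, Benjamini-Hochberg over 43726 peaks, threshold 0.05) gave log2 changes, and SE is the change over the root of F. The scripts were tested on simulated data. Peaks were assigned to the nearest protein-coding RefSeq GRCm38.p6 gene within 100 kb, a gene end being within 1 kb of either end.

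The regions and gene lists were chosen with earlier results of these data known. Named regions were those with the highest levels or ratios, those of the genes with the most selected regions, and the 8 smallest adjusted p per direction and contrast without overlap of groups. Up to 4 per gene list, promoter regions and rule edges were also named, with some left out for space. Regions named outside this rule are marked, apart from the Mir6998 region, named for its microRNA, and the companion region near Thrb.

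The labels give each library an animal identifier, shared by 1 library of each group, so the numbers pair the samples by origin. Deviations of the 18 same-animal pairs correlated from -0.060 to 0.084. Alternatives were DESeq2 1.42.0, other scalings, no filter, animals as blocks, single libraries left out and other bounds of the rule. No pair of libraries in a group was alike within sampling noise (lowest chi-square per degree of freedom 2.03). Each p-value covers the spread between cultures of 3 animals. Without a genome of this build, sequence is shown only for promoter windows and microRNAs off chromosome 18. Some results are not reported here.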

Additional observations from a re-analysis of the deposited data

Results flagged for a closer look

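The interaction test, which asks whether the DFMO effect differs between the lineages, passed the threshold for 10 of the named regions (edgeR's quasi-likelihood test, n = 3 per group). The effect was higher in iTreg near Mdfic (difference of log2 changes 2.35). It was lower in iTreg inside Ppfibp2 (-2.41), Myo3b (-3.71) and Camk2d (-2.89), at an end of 3300002I08Rik (-2.35), near B3gnt2 (-2.46), Gm5134 (-4.01), Nectin3 (-2.59) and Nup35 (-2.87), and in a region with no gene within 100 kb (chr15:5607677-5608020, -3.01). This last region went from 0.956 ± 0.868 to 6.68 ± 1.67 CPM (SD) in Th17n and from 14.5 ± 6.43 to 9.36 ± 5.18 in iTreg. The Nup35 region went from 1.40 ± 0.598 to 5.42 ± 3.22 CPM in Th17n and from 16.4 ± 3.15 to 9.62 ± 1.96 in iTreg. Of the 10 calls, 8 were lost when some single library was left out, and those in Ppfibp2 and Myo3b were not.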

How the results depend on the processing

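Counts of regions are given as higher and lower in iTreg, higher and lower in Th17n, then higher and lower by the interaction. The reported counts were 126, 32, 106, 9, 1 and 19. DESeq2 gave 75 and 17 in iTreg. Animals as replicate blocks gave 112, 32, 104, 8, 1 and 20, and changed the call of 6 named results (5 in iTreg, 1 in Th17n). Leaving out each library gave 48 to 136, 10 to 53, 52 to 114, 3 to 11, 0 to 4 and 5 to 41 over the same 927 regions, while the rule applied without each library selected 878 to 1029 regions. Of the regions called in iTreg 37 of 126 and 7 of 32 were called under every such omission, and in Th17n 25 of 106 and 2 of 9. A ratio of at least 2 selected 2244 regions with 267, 72, 243, 24, 5 and 41 calls, and a ratio of at least 4 selected 482 with 66, 16, 51, 1, 1 and 12. A floor of 10 CPM selected 494, with 73 higher and 21 lower in iTreg. The other scalings and filters kept every count within 1.5 times. The iTreg to Th17n log2 ratio read in animals not used for the choice was 1.68, 1.71 and 1.65, and the iTreg median DFMO change read so in animal 1 was -0.10, an alternative chosen after seeing the data. The cause of these differences was not tested. The share at gene ends was 2.05% within 500 bp and 7.77% within 2000 bp, against 22.3% and 29.5% of all peaks. Depth limits the Th17n values most, since 3 counts equal 2.94 CPM in its shallowest library.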

Other observations

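Long noncoding RNA genes overlapped 119 of the 927 regions and 6255 of the 48443 peaks. None of the 927 lay on a transfer RNA, small nuclear RNA or small nucleolar RNA gene, where 146, 35 and 36 of all peaks did. Chaining selected regions that lay within 50 kb of the next gave 10 groups of 3 or more, and 54 of the regions had another within 10 kb. Near Thrb, which encodes a thyroid hormone receptor, the taller of the selected regions (chr14:18083751-18084599) was at 28.4 CPM over the iTreg libraries and 1.88 over the Th17n libraries, and its companion (chr14:18058919-18059286) at 6.65 and 0.636.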
